A study of Mus musculus with 3 samples.

Results

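miR-221 and miR-222 are a pair of microRNAs made from neighbouring hairpins on the X chromosome. They were followed in mouse intestinal organoids, on 3 microRNA arrays of 1 colour, through every probe named for either microRNA and an arm of its hairpin. This gave 4 of the 1265 probes: miR-221-3p, miR-222-3p, miR-221-5p and miR-222-5p. Organoids are small epithelial bodies that stem cells form in a gel. One array held RNA of organoids from normal intestinal epithelium of wild-type mice. Another held RNA of organoids from tumours of ApcMin mice, whose germline has a truncating mutation of the tumour suppressor gene Apc. The last held RNA of such tumour organoids given 1 uM of 5-Aza-CdR, also called decitabine, which blocks DNA methyltransferases. The gel was Matrigel for all cultures, and R-spondin 1, EGF and Noggin were in their medium, which lacked serum. Each group had 1 array. How many mice or cultures stand behind an array, their strain and age, and how long the exposure lasted is not given. No difference below has a replicate check or a p-value, and array and group cannot be told apart. The pair was chosen by its treated minus untreated difference in tumour organoids, where it was higher, as known regulators of Cdkn1b. The values of that comparison therefore describe the choice and support nothing.

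A microRNA guides an Argonaute protein to messenger RNAs, mostly through its seed, which is bases 2 to 8 counted from its 5′ end, and lowers the output of its targets. The main arm of miR-221 and of miR-222 is the 3p arm. Both are known to repress Cdkn1b, whose product p27 holds back cyclin-dependent kinases at entry into S phase, and Kit, a receptor tyrosine kinase. They are abundant in endothelial and smooth muscle cells and are raised in many human carcinomas, colorectal ones included. Neither Cdkn1b nor any other messenger RNA was measured on these arrays.

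The mature sequences are shown because the seed is what ties the pair together and what decides which other probes belong beside it. They are RefSeq's on GRCm38.p6, written 5′ to 3′ with the seed in capitals, and 3 of the 4 probes matched an entry by name.
miR-221-3p: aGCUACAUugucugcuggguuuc
miR-222-3p: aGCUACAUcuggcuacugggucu
miR-1928: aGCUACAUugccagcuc
miR-221-5p: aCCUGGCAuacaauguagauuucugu
The 3p arms of miR-221 and miR-222 have the same first 8 bases and then part: 11 of 23 positions are identical when both are set from the 5′ end without gaps. One more array probe, miR-1928, carries this seed. It shares its first 10 bases and 14 of 17 positions with miR-221-3p, and 8 of 17 positions with miR-222-3p. The 5p arm of miR-221 has a seed of its own. Probe sequences were not used here, so whether the probes of these related sequences share signal was not tested.

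The hairpins are printed to show where the arms lie, with the listed mature arms in capitals.
Mir221: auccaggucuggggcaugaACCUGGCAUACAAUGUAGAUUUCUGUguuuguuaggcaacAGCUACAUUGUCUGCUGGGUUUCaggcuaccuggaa
Mir222: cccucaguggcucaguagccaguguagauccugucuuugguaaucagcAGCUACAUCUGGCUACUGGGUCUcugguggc
Mir221 lies at chrX:19146294-19146388 and Mir222 at chrX:19146893-19146971, both on the minus strand, with 504 bases between them, so that Mir222 comes first in the direction of transcription. The next annotated gene on that side is the long non-coding RNA gene Gm14636, 9499 bases away. On the other side it is the pseudogene Gm5383, at 203059 bases. No other microRNA gene is near: Mir5617 and Mir1198 are the closest, 1716154 and 11339072 bases away. The miR-1928 sequence lies on another chromosome, at chr1:74206562-74206578, also on the minus strand.

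The values are scanner spot medians in arbitrary units, from 1 spot per probe and array. Empty spots (blanks) averaged 27.3, 29.5 and 22.7 on the wild-type, untreated tumour and treated tumour arrays, and a probe was called detected above the blank mean plus 2 SD. This held for 954, 959 and 914 probes, but only 413, 410 and 408 exceeded the brightest negative control spot, a stricter level. The treated array was the dimmest: the 8 spots of a spike control averaged 5007 ± 339 (SD) on it, against 8030 ± 464 on the wild-type and 7951 ± 801 on the untreated tumour array. All 8 markers of intestinal epithelium were above the negative controls on every array. Of these, 3 were lower in untreated tumour than in wild-type organoids by more than 2-fold on the scaled log2 values described below: miR-192-5p (-2.44), miR-194-5p (-2.60) and miR-215-5p (-4.22). Over all 1040 probes counted there, 1.35% were lower by at least 2-fold. miR-192-5p turned to 0.21 when the scanner's background reading beside each spot was used. In treated against untreated organoids miR-194-5p (-0.69) and miR-192-5p (-0.60) were lower by more than 1.5-fold, as 0.591% of 1015 probes were. Both turned positive with that reading. The part of these markers in the pair's differences was not tested. Neither marker of endothelium was above them on any array.

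The spot of miR-221-3p read 78.3 in wild-type organoids, 88.1 in untreated tumour organoids and 101 in treated tumour organoids. It was above the negative controls on every array, and it was highest on the array that was dimmest overall. Above the blank mean these values are 50.9, 58.7 and 78.7. The spot of miR-222-3p read 38.9, 41.4 and 48.2 in the same order, which is 11.5, 11.9 and 25.5 above the blank mean. It was detected on all 3 arrays, but it passed the brightest negative control (42.8, 53.0 and 38.3) only on the treated array. A negative control of similar brightness averaged 41.7 ± 0.931 (SD, n = 8 spots) on the wild-type array, 49.3 ± 2.18 on the untreated tumour array and 35.3 ± 1.86 on the treated array. The SD covers spots within an array only, not the spread between cultures.

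**Figure D1:**
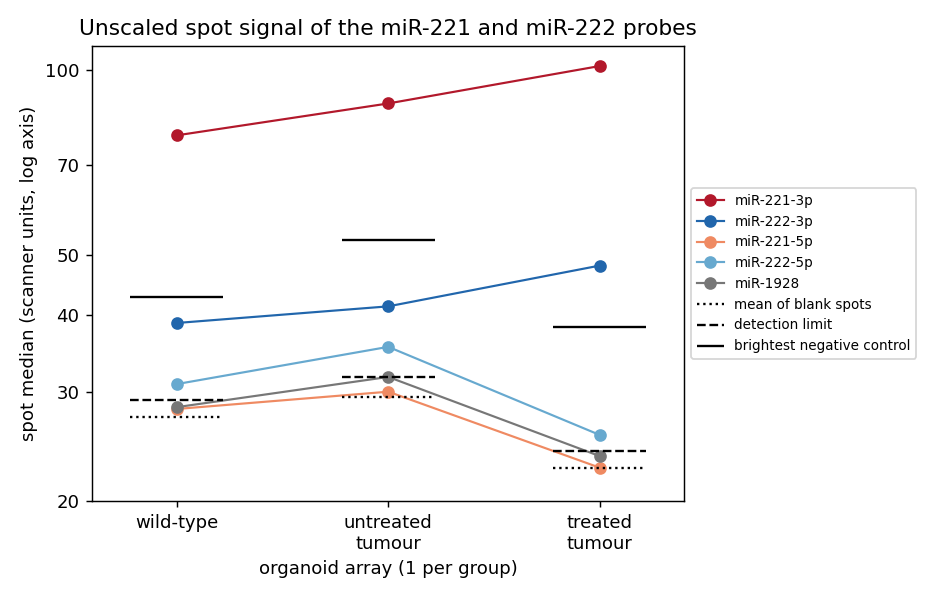
Unscaled spot medians (scanner units, log axis) of the 4 member probes and of miR-1928, which shares the seed, on the 3 arrays. Lines join the values of a probe. Short black bars are the mean of the blank spots (dotted), the detection limit (dashed) and the brightest negative control (solid) of each array. The 3p probes are highest on the treated array, while the 5p probes, miR-1928 and all 3 background levels are lowest there.

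The 5p arms gave little signal. The spot of miR-221-5p read 28.2, 30.1 and 22.7 and stayed under the detection limit (29.1, 31.7 and 24.2) on every array, so no fold is given for it. miR-222-5p read 31.0, 35.6 and 25.6, a little over the detection limit but dimmer than the brightest negative control on all 3 arrays. In signal above the blank mean it had 3.61, 6.09 and 2.95, and it was highest on the untreated tumour array. The third bearer of the seed, miR-1928, was at 28.4, 31.8 and 23.7, past the detection limit on the untreated tumour array only. The spots of these 3 probes were all lower on the treated than on the untreated array, but so was the blank mean (22.7 against 29.5). Spots this close to the blanks follow that level. Most probes did the same: of the 1015 detected on at least one tumour array, 1.77% had a brighter spot in treated organoids. Above the blank mean of each array this share was 10%.

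Before any scaling between arrays, 18 of 1015 probes detected on at least one of the tumour arrays (1.77%) had a brighter spot in treated than in untreated organoids. Both 3p probes were among these 18. Above the blank mean of each array, 102 of the 1015 (10%) were brighter in treated organoids. Of the 375 probes above the negative controls on every array, 14 (3.73%) had a brighter spot there. The spot of miR-222-3p was 1.16 times and that of miR-221-3p 1.15 times as bright on the treated array, ranks 3 and 5 of the 18. Only miR-22-3p (1.96 times), miR-34a-5p (1.36 times) and miR-3096a-5p (1.16 times) were interleaved with or ahead of them. These names were chosen after their values were seen, and miR-34a is known as a microRNA that p53 induces. The rule that chose the pair used this contrast, so the shares are given as background alone.

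To compare arrays, the background was corrected by a model fitted on the blanks, a constant of 50 was added, and all probes were given the same distribution on every array by quantile normalization. On this log2 scale the levels of miR-221-3p were 6.79, 6.56 and 7.15 in wild-type, untreated tumour and treated tumour organoids. Its treated minus untreated difference was 0.59, or 1.51-fold. That of miR-222-3p was 0.43, or 1.35-fold, from levels of 5.97, 5.89 and 6.32. Neither reached 2-fold, as 1 of 1015 probes did in the higher direction (0.0985%) and none in the lower (0%). miR-221-3p passed 1.5-fold, as 6 probes did (0.591%, and 0.591% in the lower direction), while 44.6% of the probes had a difference above 0. The differences of the 3p probes stood at places 6 and 22 of 1015. Many of the 1015 are dim, and the added constant draws the differences of dim probes towards 0. Among the 375 probes above the negative controls on every array, miR-221-3p was at place 6. miR-222-3p, which is not one of these, would stand at place 21.

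The size of the difference depends on the added constant: with 16 in place of 50 and nothing else changed, it was 0.84 for miR-221-3p and 0.86 for miR-222-3p. With the blank mean subtracted in place of the model and no constant, the treated minus untreated log2 difference was 1.06 for miR-221-3p and 1.68 for miR-222-3p. In the authors' deposited table, which holds values with a blank level subtracted, no such constant and 1 scale factor per array, miR-221-3p was listed at 109, 92.6 and 164 and miR-222-3p at 24.7, 18.8 and 53.1 in wild-type, untreated tumour and treated tumour organoids. These are treated over untreated ratios of 1.77 and 2.83. Of the 860 probes counted there, 9 (1.05%) were 2-fold or more higher in treated organoids, miR-222-3p among them, and 3.95% were that much lower. Held to the brightest negative control, miR-222-3p has only a bound, since it was not above that level in untreated tumour organoids. On the log2(signal + 50) scale described first, it was at least 1.17-fold higher in treated ones. This bound holds for that processing alone and leaves out the spread between spots. With an ordinary blank mean and SD the log2 difference itself was 0.17, and with the per-spot background column -0.035.

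**Figure D2:**
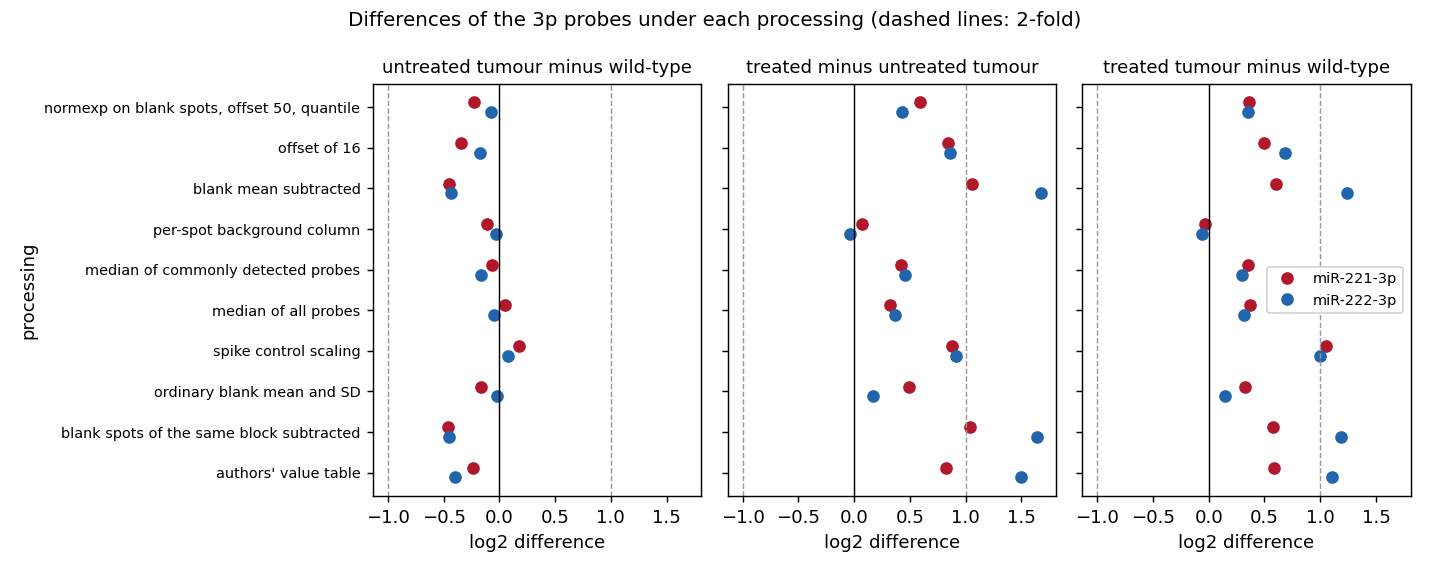
Log2 differences of miR-221-3p (red) and miR-222-3p (blue) in the 3 comparisons, 1 row for each way of processing; dashed lines mark 2-fold. In treated minus untreated organoids miR-221-3p ranges from 0.073 to 1.06 and miR-222-3p from -0.035 to 1.68, with the per-spot background column at the low end of both.

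Across the 10 ways of processing, miR-221-3p was higher in treated than in untreated tumour organoids in all, from 0.073 to 1.06. miR-222-3p was higher in 9 of them and at -0.035 when the scanner's background reading beside each spot, the per-spot background column, was used. That column follows the brightness of its own spot (r = 0.993, 0.990 and 0.978 across probes on the 3 arrays, on the log scale). For miR-221-3p it read 65.4, 91.6 and 88.6, on the untreated tumour array more than the spot itself. For miR-222-3p it read 33.2, 37.4 and 44.6, less than the spot on every array. By contrast the blank spots printed in the same block as miR-221-3p had medians of 26.6, 28.6 and 22.4, and those in the block of miR-222-3p 27.0, 29.2 and 23.2. With these local blanks subtracted the differences were 1.04 and 1.64.

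Tumour organoids were next compared with wild-type ones, which asks whether the pair differs in Apc-mutant tumour epithelium. The log2 difference of untreated tumour minus wild-type organoids was -0.23 for miR-221-3p and turned to 0.048 with arrays scaled to the median of all probes and to 0.18 with spike scaling. For miR-222-3p it was -0.08, and 0.078 with spike scaling, which moved the median of all probes to 0.14. By at least 2-fold, 1.25% of 1040 probes were higher and 1.35% lower, and 51.9% had a difference above 0. Neither 3p probe was among the 2-fold ones under any of the 10 ways of processing. The authors' deposited table gave tumour over wild-type ratios of 0.850 for miR-221-3p and 0.761 for miR-222-3p, where 6.3% of 873 probes were 2-fold higher and 4.01% lower. The unscaled spots of both 3p probes were a little brighter on the tumour array, but so were those of 942 of the 1040 probes. Between these arrays neither 3p probe kept its sign across the scalings. Less the median of all counted probes, miR-221-3p ran from -0.48 to 0.032. On that measure miR-222-3p was lower in all 10 ways, from -0.50 to -0.025, but it was under the brightest negative control on both arrays. Both median scalings and spike scaling give the same value on that measure, so they are not separate checks.

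Treated tumour organoids set against wild-type organoids share the treated array with the comparison that chose the pair. The log2 difference was 0.36 for miR-221-3p and 0.35 for miR-222-3p, so neither reached 1.5-fold, which 3.31% of 1027 probes did in the higher and 3.89% in the lower direction. At 2-fold these shares were 1.27% and 1.36%, and 47.9% of the probes had a difference above 0. Their places were 66 and 70 from the highest, and 55 and 59 when set among the 375 probes above the negative controls on every array. With the per-spot background column they turned to -0.037 and -0.062. In the authors' deposited table miR-222-3p was 2.15-fold higher, as 4.64% of 840 probes were by 2-fold or more (7.14% lower), and the log2 ratio of miR-221-3p was 0.59. On the wild-type array miR-222-3p was not above the brightest negative control. Held to that level, it was at least 1.18-fold higher in treated organoids on the log2(signal + 50) scale described first. This bound holds for that processing alone: with an ordinary blank mean and SD the log2 difference itself was 0.14.

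The probes most like each member were sought by the distance between their pair of log2 differences (tumour minus wild-type, treated minus untreated) among the probes brighter than the negative controls on all 3 arrays. This likeness rests on 3 arrays and on differences that share the untreated one, so it is a description. For miR-221-3p the nearest of 374 probes were miR-6406 (distance 0.099), miR-25-3p (0.18), miR-204-3p (0.23), let-7f-5p (0.25) and miR-30e-5p (0.26). For miR-222-3p they were miR-25-3p (0.061), miR-130a-3p (0.076), miR-680 (0.100), miR-6406 (0.13) and miR-106b-5p (0.16). miR-25-3p and miR-6406 were on both lists. In the order of the treated minus untreated difference, miR-27a-3p (0.73) and miR-3096a-5p (0.69) stood next above miR-221-3p, and miR-5121 (0.55) and miR-710 (0.54) next below. Around miR-222-3p stood miR-204-3p (0.46) and miR-25-3p (0.43) above, and miR-21a-5p (0.43) and miR-5099 (0.43) below. Of the probes next in order, miR-204-3p (-0.0036) and miR-5099 turned negative under all-probe median scaling, and miR-5099 also under the commonly detected median. With the per-spot background column miR-3096a-5p, miR-27a-3p, miR-5121, miR-710 and miR-5099 did so. The lowest value of miR-5099 over the settings was -0.62.

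**Figure D3:**
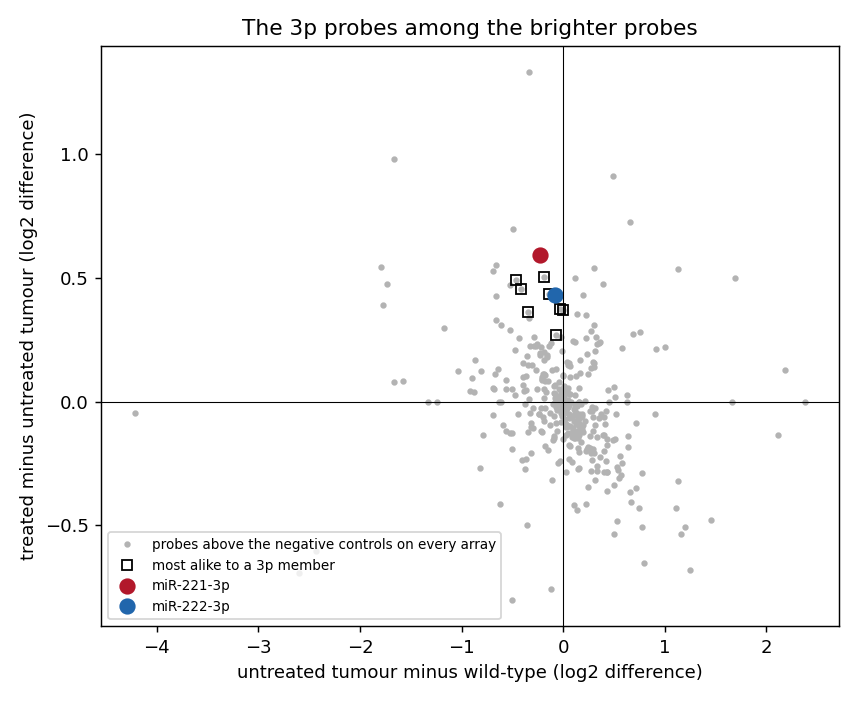
Each grey point is a probe brighter than the negative controls on all 3 arrays, by its log2 difference of untreated tumour minus wild-type (x) and of treated minus untreated tumour organoids (y). The untreated tumour array enters both axes with opposite sign. Squares are the probes most alike to a 3p member, miR-221-3p (red) lies at -0.23 and 0.59, and miR-222-3p (blue) at -0.08 and 0.43.

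Other microRNAs are described as acting on Cdkn1b. Of these, miR-24-3p was higher in tumour than in wild-type organoids by 0.90 on the log2 scale (0.19 to 1.39 over the settings), past 1.5-fold as 3.17% of all probes were, its spot reading 345, 899.6 and 657 on the 3 arrays. In treated minus untreated organoids it was at -0.05 (-0.35 to 0.44). miR-181a-5p was at -0.19 (-0.37 to 0.24) in tumour against wild type and at 0.17 (-0.07 to 0.49) after treatment, and miR-181b-5p at 0.05 (-0.01 to 0.33) and 0.15 (-0.03 to 0.53). None of these 3 reached 1.5-fold in treated organoids, and their median of 0.15, against -0.006 over all 1015 probes, fell under the median of all probes when arrays were scaled by a median or by the spikes.

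The list of microRNAs described as acting on the related inhibitor gene Cdkn1a (p21), all from the miR-17 family, was tallied next. In tumour against wild-type organoids all 6 were lower, 3 of them by at least 1.5-fold against 3.65% of all probes, with a median of -0.55 against 0.003 over all 1040. Less that of all probes, this median was -0.24 with the median and spike scalings and with the per-spot background column. They included miR-106a-5p (-0.69, -0.78 to 0.28 over the settings), miR-20a-5p (-0.67, -0.74 to 0.016) and miR-20b-5p (-0.60, -0.66 to -0.08). miR-93-5p and miR-106b-5p turned positive there under scaling to the all-probe median or to the spikes (miR-106b-5p also under the commonly detected median and in the authors' values), and miR-106a-5p and miR-20a-5p with the per-spot background column. In treated against untreated organoids 4 of 6 were higher, beside 44.6% of all probes, none by 1.5-fold, and the median of 0.08, less that of all probes, turned to -0.35 with the median and spike scalings.

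Among microRNAs described as induced through AP-1 or NF-kB, transcription factors also known to act on the miR-221 and miR-222 locus, 5 of 6 were higher in treated organoids, beside 44.6% of all 1015 probes. The median was 0.22, and less that of all probes it was 0.043 with the median and spike scalings. None reached 1.5-fold. miR-31-5p was at 0.47 (-0.13 to 0.52 over the settings), miR-21a-5p at 0.43 (0.011 to 0.56) and miR-146a-5p at 0.29 (0.034 to 1.64). The others were miR-155-5p at 0.15 (0.054 to 0.79), miR-132-3p at 0.002 (-0.31 to 0.57) and miR-21a-3p at -0.027 (-0.28 to 0.41). miR-146a-5p and miR-155-5p were above the negative controls on the treated array only, and miR-132-3p on none. All 6 were also higher in untreated tumour than in wild-type organoids, with a median of 0.16, which less that of all probes became -0.019 under the per-spot background column, where all 6 turned negative. Over all 1040 probes 51.9% had a difference above 0 there.

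Array probes from other X chromosome microRNAs numbered 125, of which 84 were detected on at least one tumour array. Their treated minus untreated differences ran from -0.53 to 0.31 with a median of -0.005, and none reached 1.5-fold. Both 3p members lay above all 84, the highest of which was miR-92a-2-5p at 0.31. This also held with the offset of 16, and with both median scalings and spike scaling, which share the same order of probes. With the blank mean subtracted, 6 other X-linked probes lay above miR-221-3p and 1 above miR-222-3p, with block blanks 4 and 2, and 1 and 59 under the per-spot background column. With an ordinary blank mean and SD 0 and 1 did, and in the authors' values 3 and 0 of 66. Since the members were picked for this difference, their place is a description.

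**Figure D4:**
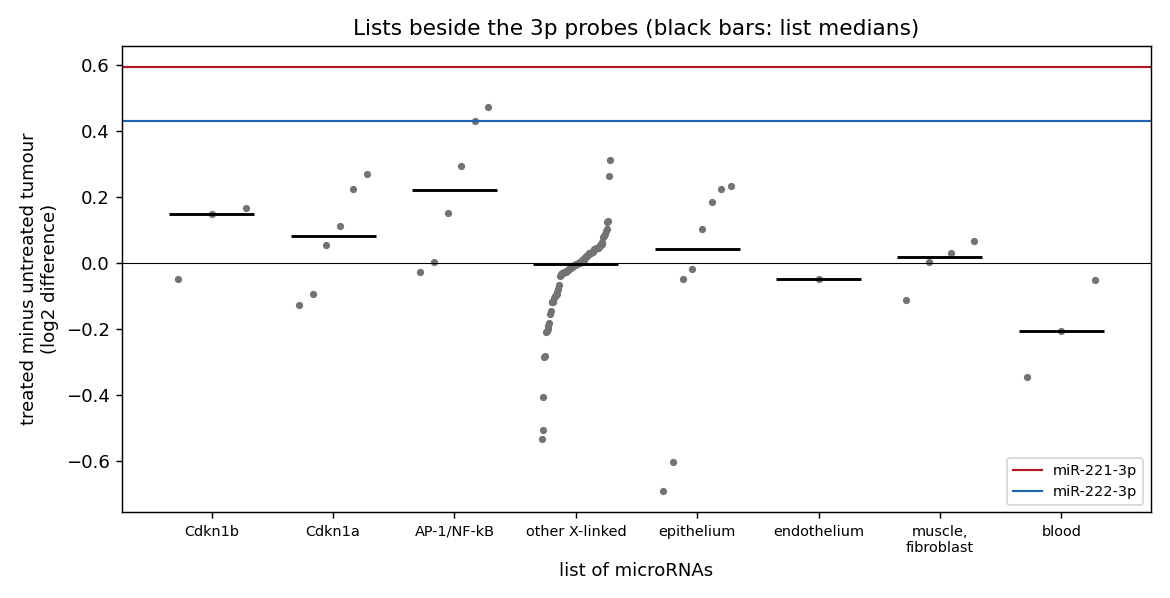
Treated minus untreated log2 differences of the probes of each list detected on at least one tumour array (grey points, sorted from left to right; black bars are medians), with the 3p members as coloured lines at 0.59 (miR-221-3p) and 0.43 (miR-222-3p). The AP-1/NF-kB list reaches 0.47, the other X-linked probes reach 0.31, and the endothelial list has 1 such probe.

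Because the pair is abundant in cells outside the epithelium, markers of such cells were set beside it. The 2 endothelial probes summed to 7.18, 11.7 and 5.44 above blank on the wild-type, untreated and treated arrays, and miR-126-3p was at -0.05 in treated against untreated organoids (-0.72 to 0.50 over the settings). The 5 smooth muscle and fibroblast probes summed to 77.6, 72.1 and 46.8, with 2, 2 and 1 of them above the negative controls. The spot of miR-143-3p, which marks smooth muscle, read 37.1, 31.9 and 25.0. It was under the brightest negative control on all 3 arrays, and its treated minus untreated log2 difference was 0.031. That of miR-214-3p, above the negative controls on every array, was 0.067, and that of miR-199a-5p was -0.11. Of the 4 probes counted there, 3 were higher and 1 lower, none by 1.5-fold. In untreated tumour against wild-type organoids miR-199a-5p was higher (0.088) and the list's other 4 probes were lower. The 5 blood cell probes summed to 90.6, 181 and 83.9, with 2 of them above the negative controls on each array, while miR-451a (red cells) and miR-142-3p (white cells) were not detected on either tumour array. All of these sums are unscaled, and they were lowest on the treated array, which was the dimmest. The sum of the 8 epithelial markers was lowest there too (11068, 6748 and 4416). The 3p members were highest on the treated array. The part of such cells in the result was not tested. Fewer cells of a type and less RNA per cell cannot be told apart in such samples.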

How the data were processed

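Per the labels' protocols, a mirVana kit gave the total RNA and Hy5 was the dye. The deposited intensity of the scanner files is, per the file headers, 1 median per spot, joined over 3 gains, before any background was taken off. The value table of the authors holds an intensity too; set against the scanner values it is the spot median less a blank level (27.3, 29.5 and 22.7), divided by 1 factor per array to a median of 25, on a linear scale and not centred by probe. The platform and scanner software are not given.

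Probes marked bad at any gain were left out (2 on the wild-type array, no member). The background was corrected with normexp in limma 3.58.1 (R 4.3.3), using a robust mean and SD of the 1664 blank spots and an offset of 50, and 1265 probes were quantile normalized to log2 values. Blank means for detection trimmed 5% at each end. A probe was counted in a comparison where either array detected it. With 1 array per group nothing was tested; 9 other ways of processing were run. The steps were checked on simulated arrays. The members and lists were chosen with earlier results of these data known. Named probes are the members, bearers of their seed, short lists on Cdkn1b, Cdkn1a and AP-1 or NF-kB, the 5 probes most alike to each 3p member, their neighbours in order, and cell type markers. Sequences are RefSeq's on GRCm38.p6; 1020 of 1252 probes with a single name matched the sequence table. Python 3.11.15 with numpy 2.4.6, pandas 2.3.3 and matplotlib 3.10.9 did the rest. The number of arrays limits the precision.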

Additional observations from a re-analysis of the deposited data

How the results depend on the processing

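No paired analysis was possible because each group has 1 array, and for the same reason no array could be left out. Scanning gains could not be varied because the files hold 1 joined value per spot. An ordinary blank mean and SD and the blanks of the same block were alternatives chosen after seeing the data. The SD of a log2 difference between spike spots (0.17, 0.17 and 0.13) served as the spread that a change had to exceed. Dim signal is a limit for miR-222-3p and both 5p probes, which were under the brightest negative control on at least 2 arrays. The causes of the changes below were not tested.

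In the order tumour minus wild type, treated minus untreated, treated minus wild type, the log2 differences with the blank mean subtracted were -0.45, 1.06 and 0.60 for miR-221-3p and -0.43, 1.68 and 1.24 for miR-222-3p, and with block blanks -0.46, 1.04 and 0.58, and -0.46, 1.64 and 1.18. The authors' values gave miR-221-3p 0.82 and 0.59 in the last 2 comparisons and miR-222-3p -0.39, 1.5 and 1.11. The offset of 16 gave 0.84 and 0.50 for miR-221-3p and 0.86 and 0.68 for miR-222-3p in the last 2. The per-spot background column gave 0.073 and -0.037, and -0.035 and -0.062, so that 3 of these turned negative. Spike scaling gave 0.18, 0.87 and 1.05 for miR-221-3p and 0.92 and 1.00 for miR-222-3p in the last 2, beside a median over all counted probes of 0.14, 0.52 and 0.68. The median of all probes gave miR-221-3p 0.048 in tumour minus wild type and 0.32 after treatment, the median of commonly detected probes 0.42 after treatment, and the ordinary blank SD gave miR-222-3p 0.17 and 0.14 in the last 2.

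Counts of probes at least 2-fold higher and lower were 13 and 14 (tumour minus wild type), 1 and 0 (treated minus untreated) and 13 and 14 (treated minus wild type). They were 102 and 91, 64 and 68, and 109 and 114 with the blank mean subtracted; 98 and 88, 52 and 58, and 102 and 109 with block blanks; 55 and 35, 9 and 34, and 39 and 60 in the authors' values; and 33 and 38, 6 and 6, and 34 and 40 at 1.5-fold. Spike scaling gave 45 and 9, 2 higher after treatment, and 69 and 3. The per-spot column gave 20 and 27, then 23 and 25. The median of all probes gave 32 higher in tumour organoids and 0 higher and 8 lower after treatment, that of commonly detected probes 22 higher in tumour organoids and 3 lower after treatment. The offset of 16 gave 2 higher after treatment and 22 higher in treated minus wild type.

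List medians are given less that of all counted probes, which cancels the scale, so both median scalings and spike scaling give 1 value. With the blank mean subtracted, block blanks and the authors' values, the 3 probes with the seed were at -0.45, -0.48 and -0.42 in tumour organoids and 1.10, 1.10 and 1.42 after treatment. After treatment they were also at 0.86 with the offset of 16, 0.0090 with the per-spot column and 0.17 with the ordinary blank SD. With the blank mean subtracted, block blanks and the authors' values, the Cdkn1b list was at 0.37, 0.40 and 0.38 after treatment, and at -0.037 under median and spike scaling. The Cdkn1a list was at -0.24 in tumour organoids under median and spike scaling and with the per-spot column (-0.24), and at -0.35 and -0.16 after treatment. The AP-1 and NF-kB list was at 0.59, 0.45 and 0.61 in tumour organoids and 0.52, 0.53 and 0.55 after treatment in the same 3 settings as the Cdkn1b list, at -0.019 and 0.028 with the per-spot column, and at 0.043 after treatment under median and spike scaling.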
